A study of Mus musculus with 20 samples.

Results

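Bile acid synthesis and transport in the liver are represented here by 10 genes, followed through their CpG methylation in mouse liver. The genes are Cyp7a1, Cyp8b1, Cyp27a1, Cyp7b1, Hsd3b7, Baat, Slc27a5, Slc10a1, Abcb11 and Nr0b2. They were taken as a named list, and their CpGs were all those from 5 kb upstream of the transcription start site (TSS) to the gene end with at least 10 reads in at least 3 libraries of each group. This left 68 CpGs, of 906622 kept on the autosomes, and they lay in 7 of the 10 genes. The other 3 genes, Cyp8b1, Baat and Nr0b2, had no CpG that passed.

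DNA methylation was measured by reduced representation bisulfite sequencing (RRBS), in which the enzyme MspI cuts DNA at CCGG and the fragments are converted with bisulfite, so that a methylated C is still read as C. There were 20 liver libraries in 4 groups of 5, all from C57BL/6J wild-type mice labelled male. AME stands for an adverse maternal environment, in which dams ate a Western-style diet from before mating through lactation and were also stressed in late gestation. Con dams ate a control diet without stress, and their offspring formed Con-d0 and Con-d21. AME-d0 and AME-d21 were the offspring of AME dams, where d0 pups were taken by C-section at term and d21 mice were taken at weaning after a fast. Diet and stress were given together, so their effects cannot be told apart. The study used 5 litters per group and age, and the replicate numbers tie no library to another.

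Bile acids are made from cholesterol in hepatocytes by a classic route and an alternative route. They are joined to an amino acid, pumped into bile, and taken up again from the blood that returns from the gut. Cyp7a1 is the rate-limiting enzyme of the classic route and Cyp8b1 sets the share of cholic acid. Cyp27a1 and Cyp7b1 act in the alternative route, and Hsd3b7 converts the ring of the sterol in both routes. Slc27a5 activates bile acids and Baat joins them to taurine or glycine. Slc10a1 takes bile acids up from the blood, Abcb11 exports them into bile, and Nr0b2 represses Cyp7a1 when bile acids are high. CpG methylation near a start site is usually low in genes that are in use, while methylation across gene bodies is usually high.

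Total reads over CpGs ranged from 23248139 to 45769589 per library. One library went against its label: AME-d21 replicate 4 had 2.88 chromosome X reads per 100 autosomal reads and 14.3 short-arm Y reads per 1000000 reads, while the other 19 libraries had 1.40 to 1.55 and 147 to 191. AME-d0 replicates 1 and 3 also stood apart, with 30.2% and 29.5% of all reads methylated, against 34.6% to 38.1% in the other 8 d0 libraries. Values without these libraries are given for the AME window and CpG counts and where a call or a direction changed.

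The sequences below are some of the stretches in which age differences were seen. Those of Cyp27a1 and of the other called Cyp7b1 bins are not shown. They were read from GRCm38 (the assembly of mm10) on the strand of each gene, with the measured CpGs in capitals. Each sequence shown holds at least 1 CCGG site, at which MspI cuts.

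Hsd3b7, coding exon, chr7:127801179-127801208 (+): gcccaggctcCGggagctgCGtgtctttga

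Hsd3b7, intron, chr7:127801331-127801392 (+): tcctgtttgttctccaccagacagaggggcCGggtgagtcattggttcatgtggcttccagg

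Slc27a5, coding exon, chr7:12996322-12996383 (-): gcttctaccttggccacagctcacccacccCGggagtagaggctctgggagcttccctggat

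Cyp7a1, coding exon, chr4:6272556-6272728 (-): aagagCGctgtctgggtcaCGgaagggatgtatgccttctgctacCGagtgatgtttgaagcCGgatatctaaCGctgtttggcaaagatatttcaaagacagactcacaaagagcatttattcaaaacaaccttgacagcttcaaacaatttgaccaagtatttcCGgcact

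Cyp7b1, intron, chr3:18188626-18188742 (-): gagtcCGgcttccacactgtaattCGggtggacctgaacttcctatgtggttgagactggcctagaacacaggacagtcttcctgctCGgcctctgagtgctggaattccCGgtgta

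Abcb11, intron, chr2:69253325-69253386 (-): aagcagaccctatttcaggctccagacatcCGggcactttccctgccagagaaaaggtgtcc

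The assay saw little of these genes. Their 10 windows hold 3016 CpGs and 204 CCGG sites in the reference, of which 499 CpGs had a read in some library and 68 were kept. Of those 68, 33 lay in introns, 14 in coding exons, 1 in a UTR and 20 upstream, and only 3 lay within 1 kb of the TSS. All 3 of these were in Hsd3b7. RefSeq start-site windows of 300 bases (250 before to 50 after the start, GRCm38.p6) were at hand for 6 of the genes, and 2 of their 7 windows held a CCGG site, against 52.8% of 32851 such windows. Cyp7b1 gave 16 CpGs, Hsd3b7 17, Cyp27a1 12, Slc27a5 7, Cyp7a1 and Slc10a1 6 each, and Abcb11 4. The median tested gene had 36.

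To ask how methylation of these genes changed between birth and weaning, the reads of each gene window were summed per library and Con-d21 was compared with Con-d0. A gene window ran from 5 kb upstream of the TSS to the gene end. In the controls, Cyp7b1, Abcb11 and Cyp27a1 rose, Cyp7a1 and Hsd3b7 fell, and Slc27a5 and Slc10a1 did not pass the test (limma, adjusted p under 0.05). Thus 3 of 7 windows rose, where 32.5% of all 16443 windows rose, and 2 of 7 fell, where 3.97% of all windows fell. The median difference was -0.17 points over the 7 windows and 2.08 points over all windows. In the AME livers the same 3 windows rose, against 37.1% of all windows, and 0 fell, against 2.39%. Without AME-d21 replicate 4, 3 rose and 0 fell, while 5922 and 388 of all 16443 windows did. Without AME-d0 replicates 1 and 3, 3 rose and 1 fell, while 3666 and 353 of all windows did. The plot of gene windows by library shows each value.

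**Figure D1:**
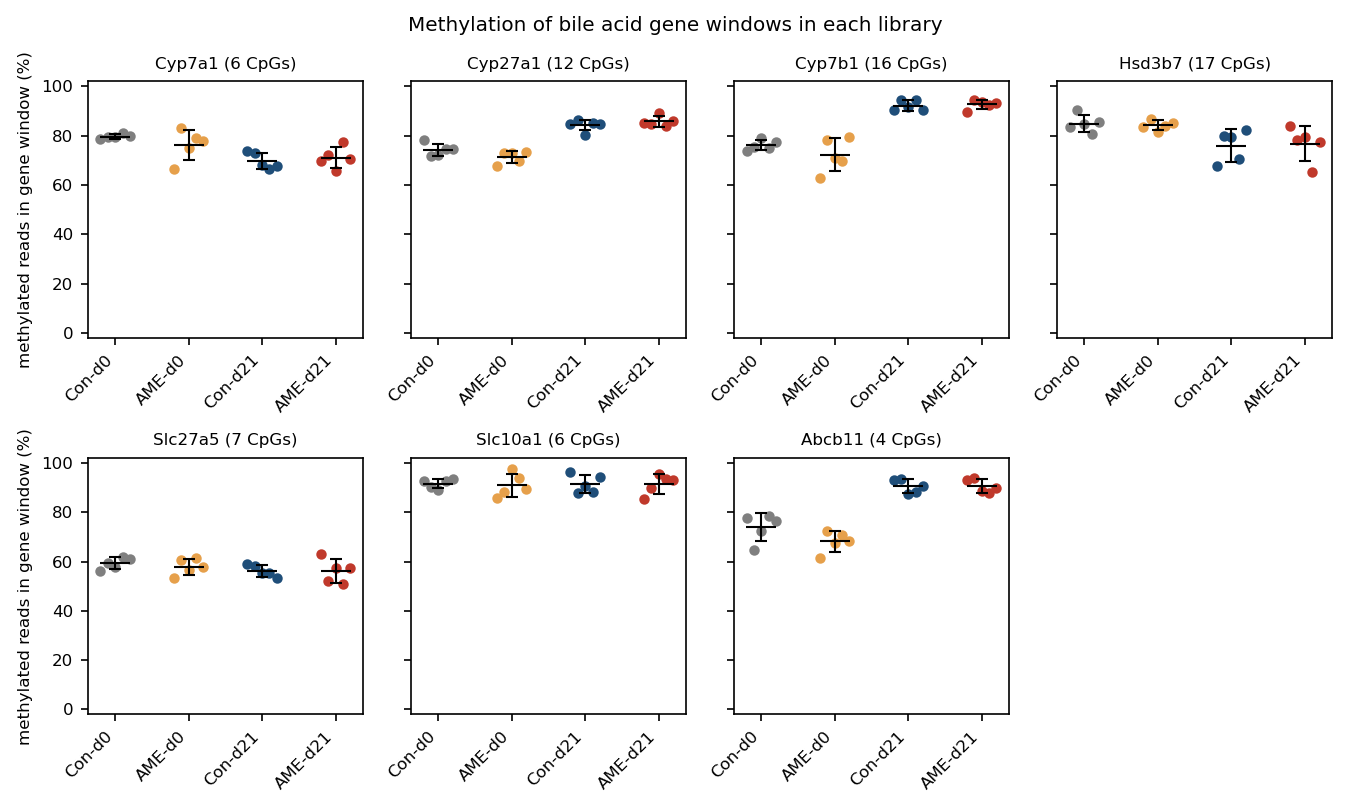
Percent of reads methylated in each gene window (vertical axis) for the 5 libraries of each group (points), with the group mean and SD (bars). In Cyp7b1, Abcb11 and Cyp27a1 every d21 library lies above every d0 library, and Slc10a1 stays near 91% in all 4 groups.

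Cyp7a1 (chr4:6265612-6275633) lost methylation in the controls. Its window read 78.6%, 79.3%, 79.3%, 81.0% and 79.8% methylated in the 5 Con-d0 libraries and 73.7%, 73.0%, 68.04%, 66.7% and 67.5% in the Con-d21 libraries. Every Con-d21 library was below every Con-d0 library. The fall was 9.84 points (95% interval -13.1 to -6.53, limma adjusted p = 0.0009017). In AME livers it was 76.3% ± 6.15 (SD, n = 5) at d0 and 71.1% ± 4.37 at d21, and these groups overlapped (-5.24 points, interval -12.5 to 2.04, adjusted p = 0.19). The age difference did not differ detectably between AME and Con (4.59 points, interval -3.03 to 12.2, adjusted p = 0.83). Without AME-d0 replicates 1 and 3 the AME fall passed the test (adjusted p = 0.0395). All 6 CpGs lay in 1 coding exon, from +2911 to +3072 bp of the TSS. The CpG at +3072 went from 88.1% ± 3.16 to 74.1% ± 4.80 in controls, but none of the 6 passed the threshold for CpGs. A minimum of 5 reads added coding-exon CpGs at +7357 and +7141. The former had 58.9% (Wilson 95% interval 45.9 to 70.8) in Con-d0 and 19.6% (10.65 to 33.2) in Con-d21. In AME livers it had 41.7% (30.1 to 54.3) and 34.8% (22.7 to 49.2). The latter had 89.2% and 96.1% in controls and 81.4% and 91.3% in AME livers. These intervals cover counting error only.

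Hsd3b7 (chr7:127800604-127803802) carried the deepest falls of single CpGs among the 68 in controls, all inside the gene. The 2 CpGs at +585 and +594 lie in a coding exon, and their 200-bp bin was 72.3%, 91.3%, 72.9%, 69.2% and 75.9% methylated in the Con-d0 libraries. In the Con-d21 libraries it was 15.4%, 35.5%, 40.3%, 24.1% and 43.4%. All d21 libraries lay far below all d0 libraries, and methylation fell by 44.6 points (interval -58.8 to -30.3, limma adjusted p = 0.00018). AME livers fell by 39.97 points (interval -49.2 to -30.8, adjusted p = 3.9e-05), with 62.5% to 75.2% at d0 and 22.0% to 39.5% at d21. The third CpG, at +757 in an intron, went from 59.9% ± 11.5 in Con-d0 to 11.1% ± 4.68 in Con-d21. These 3 CpGs, on 6 to 67 reads per library, are also covered by overlapping readthrough transcripts (Gm49388) and by 9430064I24Rik on the other strand.

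The other 14 CpGs of the Hsd3b7 window lay upstream, inside the neighbouring gene Setd1a. They held 87.7% ± 2.48 in Con-d0, 88.9% ± 3.14 in Con-d21, 87.7% ± 1.85 in AME-d0 and 91.8% ± 1.46 in AME-d21. The 3 CpGs inside Hsd3b7 together held 73.3% ± 7.49, 27.8% ± 10.2, 68.9% ± 3.64 and 28.1% ± 8.26 in the same order. Mixing both sets gave a window difference of only -8.93 points in controls (interval -16.1 to -1.77, adjusted p = 0.032). Within 1 kb of the TSS the log2 ratio of methylated to unmethylated reads fell by 2.86 in controls (adjusted p = 0.00024) and fell by 2.47 in AME livers (adjusted p = 9.1e-05). The whole window lost its call without any 1 of 5 control libraries, with adjusted p from 0.053 to 0.076. These were Con-d21 replicates 1 and 4 and Con-d0 replicates 2, 3 and 5. It was also lost at a minimum of 5 reads (limma adjusted p = 0.0804), at 20 reads (0.0637) and with the quasi-binomial model on summed counts (adjusted p = 0.0953). In AME livers the window missed the threshold (-7.41 points, limma adjusted p = 0.0506), and it passed without AME-d21 replicate 1 (adjusted p = 0.0203), in 1 fit of 20 libraries (0.0479), at 20 reads (0.0357), with CpGs read in all 20 libraries (0.016) and with each CpG given equal weight (0.00209). Whether this window is counted as falling in AME livers therefore depends on the setting.

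Slc27a5 (chr7:12988346-12998192) did not pass the test over its whole window, with 59.2% ± 2.41 in Con-d0 and 56.2% ± 2.27 in Con-d21 (limma adjusted p = 0.24). One of its 7 CpGs stood apart from the others. At +1840, in a coding exon, the Con-d0 libraries read 50%, 57.1%, 53.6%, 79.3% and 67.6%. The Con-d21 libraries read 10%, 5.56%, 35%, 31.8% and 17.6%, all below the d0 libraries. Methylation fell by 41.5 points in controls, which missed the threshold of p under 0.001 for single CpGs (quasi-binomial p = 0.0012, exact permutation p = 0.0079). In AME livers it fell by 36.9 points and passed (quasi-binomial p = 0.00098, exact permutation p = 0.0079), and whether the age difference itself differed between Con and AME was not tested at single CpGs. AME and Con did not differ detectably at this CpG at d0 (exact permutation p = 0.619) or at d21 (exact permutation p = 0.913). The exact p of 0.0079 for the age differences is the smallest that 5 libraries against 5 allow. The AME call was lost when any 1 library was left out. The 4 CpGs between +1491 and +1668 stayed between 57.6% and 77.9% in group means. With each CpG of the window given equal weight, in place of each read, the control window passed (-8.29 points, limma adjusted p = 0.00658).

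Cyp7b1 (chr3:18071950-18243338) gained methylation. Its window held 73.7%, 75.5%, 79.1%, 75.1% and 77.5% in the Con-d0 libraries and 90.4%, 94.5%, 91.6%, 94.5% and 90.3% in the Con-d21 libraries. The groups did not overlap, and the rise was 16.1 points (interval 13.2 to 18.96, adjusted p = 4.4e-05). In AME livers it rose by 20.4 points (interval 13.6 to 27.2, adjusted p = 5.3e-05). All 16 CpGs were higher at d21 in both comparisons. The CpG at +54684 in an intron showed the largest rise, from 52.0% ± 6.05 in Con-d0 to 86.8% ± 4.44 in Con-d21 (34.9 points, quasi-binomial p = 2.2e-05, exact permutation p = 0.0079), and this held without any 1 library. The 3 other called Cyp7b1 CpGs in controls, at +54621, +46964 and -3216, each lost their call without most single libraries.

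**Figure D2:**
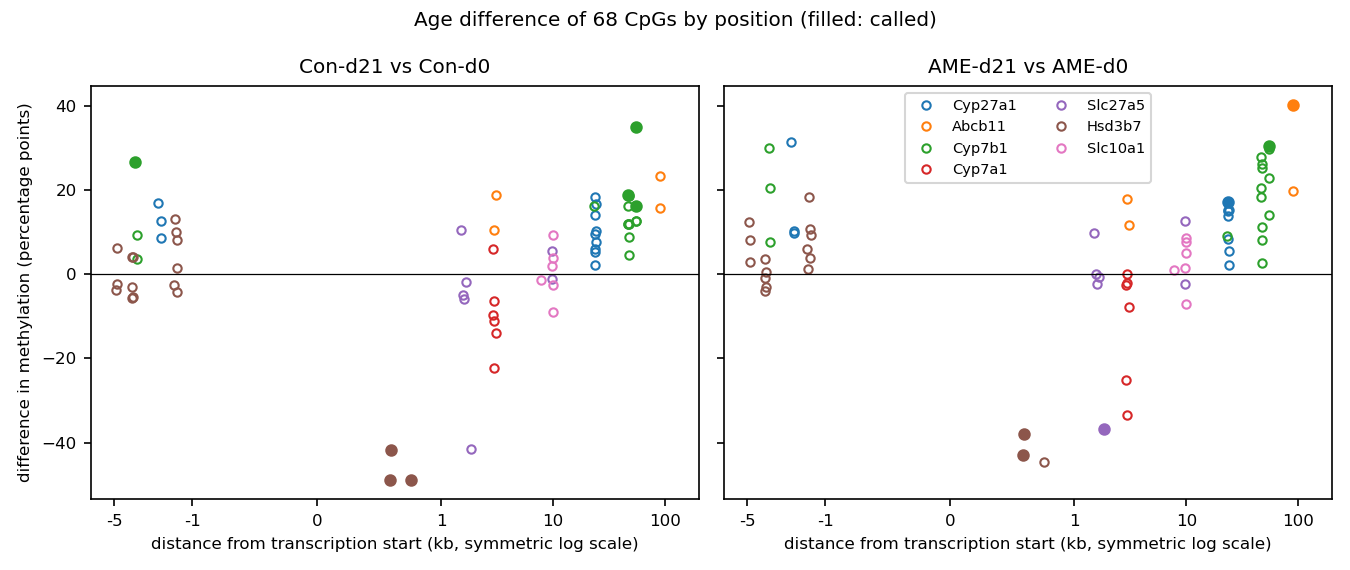
Difference in methylation between d21 and d0 (percentage points) for each of the 68 CpGs against its distance from the TSS (kb, symmetric log scale), in Con (left) and AME (right) livers, coloured by gene, with called CpGs filled. The falls of over 35 points sit between +585 and +1840 bp in Hsd3b7 and Slc27a5, and in both panels the CpGs of Cyp27a1, Cyp7b1 and Abcb11 beyond 20 kb all lie above 0.

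Cyp27a1 (chr1:74713574-74737892) and Abcb11 (chr2:69238282-69342616) also rose. Cyp27a1 held 78.1%, 71.7%, 72.1%, 74.4% and 74.7% in Con-d0 and 84.9%, 86.2%, 80.5%, 85.3% and 84.8% in Con-d21. The groups did not overlap, with a rise of 10.2 points (interval 6.89 to 13.4, adjusted p = 0.00059) in controls and 14.4 points (interval 11.2 to 17.5, adjusted p = 0.00014) in AME livers. The CpGs of Cyp27a1 lay from +23471 to +24001, close to the gene end, and from -2045 to -1895 upstream of the TSS. Abcb11, on 4 intronic CpGs, held 77.8%, 64.8%, 72.3%, 78.5% and 76.4% in Con-d0 and 93.3%, 93.6%, 87.6%, 88.1% and 90.6% in Con-d21. Every Con-d21 library was higher than every Con-d0 library (16.7 points, interval 10.6 to 22.8, adjusted p = 0.00031). In AME livers Abcb11 rose by 22.5 points (interval 17.6 to 27.3, adjusted p = 4.1e-05), and its CpG at +89261, which an antisense gene (Gm13613) overlaps, rose from 51.4% ± 13.2 to 91.6% ± 2.09.

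**Figure D3:**
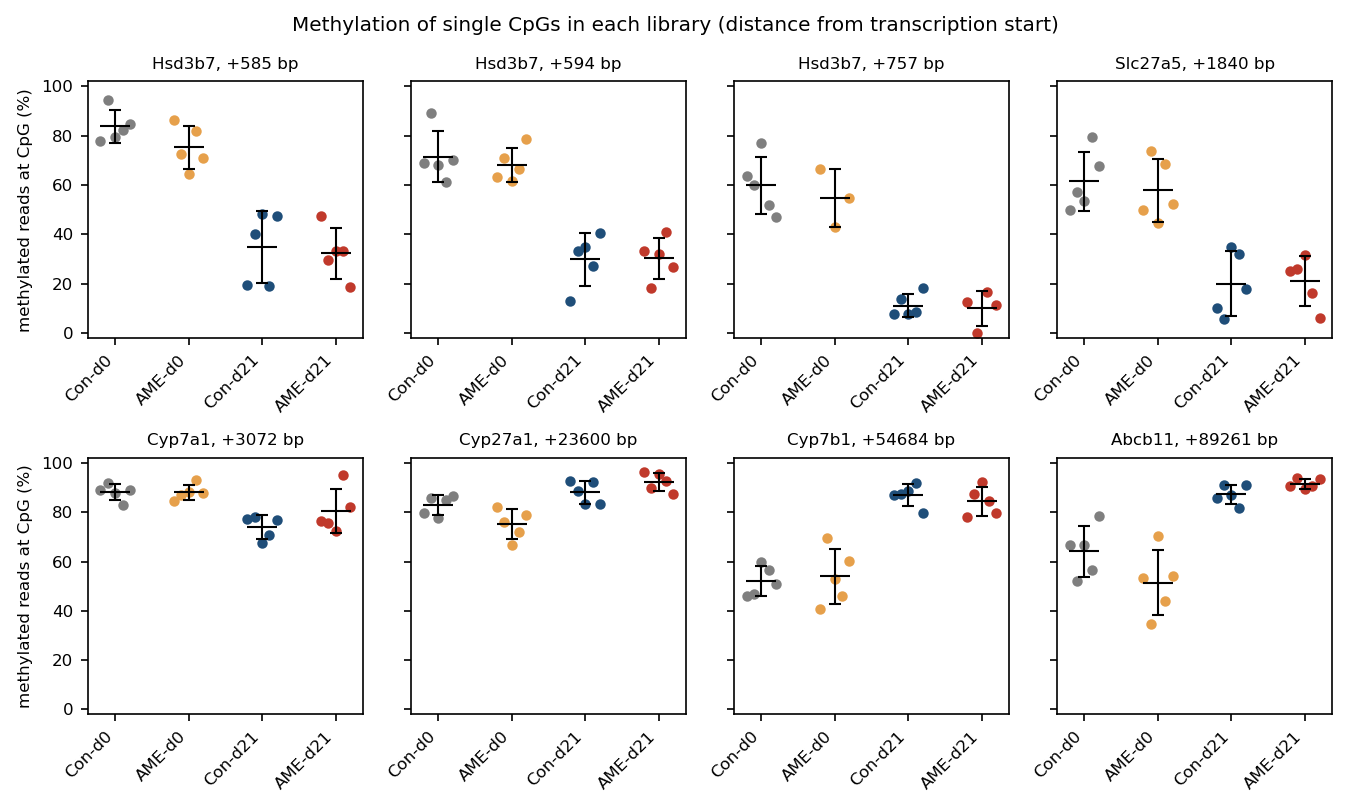
Percent of reads methylated at 8 single CpGs in each library with at least 10 reads (points), by group, with the mean and SD (bars). At Hsd3b7 and Slc27a5 the d21 libraries lie below the d0 libraries, while at Cyp7b1 and Abcb11 they lie above.

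Slc10a1 (chr12:80953183-80968705) did not pass the test on its 6 kept CpGs, all intronic and from +7752 to +10030. Its window held 91.6% ± 1.83 in Con-d0 and 91.4% ± 3.70 in Con-d21 (-0.17 points, interval -4.15 to 3.81), while the log2 ratio had the opposite sign (0.04, limma adjusted p = 0.93). A minimum of 5 reads in place of 10 added CpGs close to the start, and the window then fell in controls (log2 ratio -1.23, adjusted p = 4.1e-05) and in AME livers (-0.74, adjusted p = 0.013). Of these CpGs, 5 lay close to the start. The CpG at +609 is intronic in GENCODE, from whose start distances were counted. It also lies inside a RefSeq start-site window of Slc10a1 (chr12:80968030-80968329). This CpG was low at both ages. In Con-d0 it had 26.9% (7 of 26 reads, Wilson 95% interval 13.7 to 46.1). In Con-d21 it had 14.3% (8 of 56 reads, interval 7.42 to 25.7). The AME values were 30% at d0 and 23.8% at d21, and the intervals of the ages overlapped in both. The other 4 lay between +756 and +805, downstream of that RefSeq window, in the coding exon and UTR, and shared their reads. Summed over these 4, the methylated share was 41.7% to 100% in the 5 Con-d0 libraries and 1.92% to 30.6% in the 5 Con-d21 libraries. In AME livers it was 75.0% to 100% at d0 and 17.5% to 52.5% at d21. Neither pair of groups overlapped, but these libraries had only 1 to 14 reads per CpG, so the values are a description.

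Cyp8b1 had 2 CpGs at the lower minimum, in its coding exon at +1303 and +1342. The latter had 63 of 78 reads methylated in Con-d0 (80.8%, Wilson 95% interval 70.7 to 88.0) and 34 of 55 in Con-d21 (61.8%, interval 48.6 to 73.5). In AME livers it had 70.2% (interval 57.3 to 80.5) at d0 and 42.9% (interval 29.1 to 57.8) at d21. The CpG at +1303 had 67.9% (interval 57.0 to 77.2) in Con-d0 and 63.6% (interval 50.4 to 75.1) in Con-d21. The AME values were 66.7% (interval 53.7 to 77.5) and 54.8% (interval 39.9 to 68.8), and its intervals overlapped widely. These intervals cover counting error only. Baat and Nr0b2 had no CpG at either minimum, so nothing was measured for them.

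The same comparisons were made in smaller units. Of 18 bins of 200 bp tested, 7 rose (all bins: 40.4%) and 2 fell (4.02%) in controls, and 9 rose (43.9%) and 1 fell (3.41%) in AME livers. Both falling control bins lay in Hsd3b7 and Cyp7a1. The 7 rising bins were 4 in Cyp7b1 and 3 in Cyp27a1. In Cyp7b1 the largest rise was that of the bin at +54602 to +54707, from 68.2% ± 4.17 in Con-d0 to 89.4% ± 3.69 in Con-d21 (limma adjusted p = 0.00016). The bins at +46768 to +46860 and +46964 to +47137 rose by 13.6 and 13.2 points. In Cyp27a1 the upstream bin went from 86.4% ± 4.86 to 96.7% ± 2.28 and those at +23471 to +23600 and +23628 to +23638 rose by 8.81 and 11.6 points. The Cyp7a1 bin at +2911 to +2979 went from 77.2% ± 1.98 to 68.4% ± 3.60 (limma adjusted p = 0.044). No bin passed in Slc27a5 or Slc10a1, where the largest differences were -3.22 points (72.6% ± 3.07 to 69.4% ± 4.78) and 1.36 points (89.6% ± 2.53 to 91.0% ± 2.74). In AME livers the same bins of Cyp7b1 and Cyp27a1 rose, and the falling bin was in Hsd3b7. The other AME rises lay upstream of Hsd3b7, at -4731 to -4719 (5.96 points, limma adjusted p = 0.026) and -1403 to -1357 (10.7 points, 0.029). In controls these upstream bins did not pass (3.01 and 7.54 points). Their age differences did not differ detectably between AME and Con (limma adjusted p = 0.99 for each). With 20 reads as the minimum, 12 bins were tested, of which 5 rose and 0 fell in controls. Of all 88293 bins at this minimum, 36473 rose and 3960 fell. Of the 68 CpGs, 4 rose and 3 fell in controls (quasi-binomial p under 0.001 and 10 points, all CpGs: 2.51% rose and 0.74% fell), and 3 rose and 3 fell in AME livers (2.59% and 0.562%). Without AME-d21 replicate 4, or without AME-d0 replicates 1 and 3, 1 CpG rose and 2 fell in AME livers. Without those AME-d0 replicates 65 CpGs were tested, and 0.933% of all CpGs rose and 0.293% fell. For the run without AME-d21 replicate 4 the share of all CpGs is not given here, so its count has no background. The 16 CpGs within 5 kb downstream of a start, a limit chosen after the values were seen, were lower at d21 in 12 cases in controls and 11 in AME livers. Elsewhere in the windows 41 of 52 were higher at d21 in controls and 47 in AME livers. These counts are a description, since no test was made. CpGs added at a minimum of 5 reads, such as the Cyp7a1 CpG at +7357, were not counted.

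Other genes of the pathway were compared from a list of 39 genes, of which 30 could be tested. In controls 17 rose and 3 fell, with a median difference of 3.75 points, where 32.5% of all windows rose, 3.97% fell and the median was 2.08 points. Synthesis and conjugation enzymes accounted for 5 of 10 rising, transporters for 6 of 7 and regulators for 6 of 13. The falls were in Klb, a co-receptor of the gut hormone that represses Cyp7a1 (60.0% ± 1.36 to 37.4% ± 3.60), Hnf4a, a hepatocyte transcription factor (65.5% ± 2.05 to 50.4% ± 1.48), and Rxra, a nuclear receptor partner (26.1% ± 2.82 to 19.6% ± 2.18). Among the rises were the sterol exporters Abcg5 (39.1% ± 5.05 to 61.0% ± 3.21) and Abcg8 (44.0% ± 5.15 to 61.8% ± 2.59). Others were the bile acid enzyme Akr1d1 (71.3% ± 5.51 to 88.0% ± 2.41) and the bile acid receptor Gpbar1 (81.8% ± 1.52 to 93.2% ± 0.65). In AME livers 18 rose and 2 fell, where 37.1% and 2.39% of all windows did.

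Markers of hepatocytes and of other liver cells moved with age as well. Of 12 hepatocyte markers 8 were tested. Of these 8, 6 fell in controls, and their mean level went from 55.5% to 59.2% in the Con-d0 libraries to 33.4% to 37.9% in the Con-d21 libraries. Haematopoietic and myeloid markers rose in 7 of 9 cases and fell in 1 (10 listed), with levels of 39.25% to 41.0% and then 56.4% to 58.8%. In controls 3 of 6 erythroid, 4 of 6 endothelial and 1 of 1 Kupffer cell markers rose (9, 6 and 5 listed). Of 5 cholangiocyte markers 1 rose and 2 fell, and of 5 stellate cell markers 2 rose and 1 fell. For all these counts, 32.5% of all 16443 windows rose and 3.97% fell in controls. In bulk liver a change in the share of a cell type and a change within cells cannot be told apart, and the part of these markers in the results was not tested. The window most like Abcb11, the gene with the largest control difference, over the 20 libraries was that of Eps8l3 (mean absolute difference 2.70 points), followed by Tln2 (2.78) and Timd2 (2.91).

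To ask whether the maternal environment changed these genes, AME was compared with Con at each age. No member passed in any of these comparisons. At d0 the 7 window differences ran from -5.81 points in Abcb11 (interval -12.6 to 0.995) to -0.64 in Slc10a1 (interval -5.55 to 4.26). At d21 they ran from -0.03 points in Slc10a1 (interval -5.31 to 5.24) to 1.42 in Cyp27a1 (interval -1.53 to 4.38). No window of any gene passed in the limma test at d0, at d21 or for the difference between the ages (0% of 16443 in each), with 1418, 686 and 1067 windows at an unadjusted p under 0.05 and 0 of the 7 members among them. The quasi-binomial model on summed counts also called 0 windows at either age. Leaving out AME-d21 replicate 4, or AME-d0 replicates 1 and 3, gave 0 member windows too. Without AME-d0 replicates 1 and 3 the d0 log2 differences of Cyp7a1 (0.0407), Slc27a5 (0.0378) and Hsd3b7 (0.0142) turned from below to above 0. At d21, without AME-d21 replicate 4, that of Cyp7a1 turned below 0 (-0.0246) and that of Abcb11 above 0 (0.0789). The median d0 difference over all 16443 windows was -1.07 points.

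**Figure D4:**
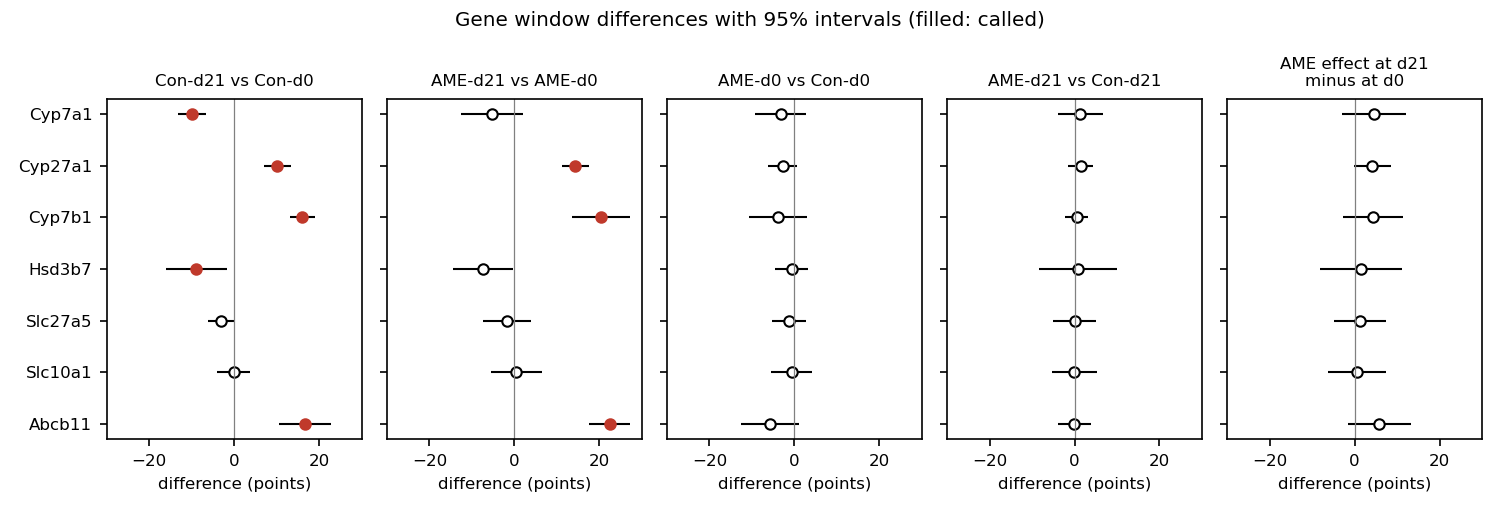
Difference in gene window methylation (percentage points, points with 95% intervals) of 7 genes in each comparison, with filled points for windows past the adjusted p threshold. Age differences reach 22.5 points. The AME differences at d0 and d21 lie between -5.81 and 1.42 points. The differences of AME effects between ages lie between 0.61 and 5.79 points. All intervals of these AME comparisons cross 0.

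Bins and CpGs were compared in the same way. The 18 bins differed by -8.48 to 3.52 points at d0 and by -6.28 to 5.54 points at d21, and 0 passed (0% of 154606 bins passed in limma in the AME comparisons and in the difference between ages). On the percent scale the intervals of 2 bins left out 0, that of the Slc27a5 bin at +9661 to +9786 at d0 (-3.63 points, interval -6.58 to -0.68, limma adjusted p = 0.96) and that of the Cyp27a1 bin at +23471 to +23600 for the difference between ages (5.67 points, interval 0.847 to 10.5, limma adjusted p = 0.98). The test was weak in single bins of simulated data, where few bins changed and these started at mid-range methylation, unlike most member bins. The lack of calls does not show that the bins were alike. All bins at an unadjusted p under 0.05 numbered 8556, 7703 and 7805, and 0 of the 18 were among them. Of the 68 CpGs 0 passed at d0 (0.000551% of all CpGs) or d21 (0.000221%), also with limma and with a likelihood-ratio test. In each comparison 1 of the 68 CpGs had an unadjusted p under 0.05. At d0 the smallest p was that of an upstream Hsd3b7 CpG at -3451 (84.9% ± 5.52 in Con-d0 and 95.7% ± 2.81 in AME-d0, quasi-binomial p = 0.022, exact permutation p = 0.0079, adjusted p = 1). At d21 it was that of the Cyp7b1 CpG at +54707 (83.2% ± 5.96 in 5 Con-d21 libraries and 94.7% ± 4.30 in 4 AME-d21 libraries, quasi-binomial p = 0.015, exact permutation p = 0.016, adjusted p = 1). AME-d21 replicate 4, left out there with 6 reads, read 66.7%, below every Con-d21 library. At d0, 47 of the 68 CpGs were lower in AME, and at d21 42 were higher, and these CpGs share libraries. Without AME-d0 replicates 1 and 3, 37 of the 68 were lower at d0. Over all kept CpGs these 2 libraries were at 28.3% and 28.5% methylated, against 33.3% to 36.5% in the other d0 libraries, and their part in the d0 differences was otherwise not tested. The intervals above leave room for differences of several points in a window, and wider ones in single CpGs.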

How the data were processed

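The deposited files list CpGs for each of 20 libraries, with entries from 1 read upwards. The authors' counts are the methylated reads, the unmethylated reads and their sum at each CpG without normalization, and the deposited percent matched the share of methylated reads at every CpG. FastQC, Trim Galore, Bismark and BWA are listed in the submitters' processing notes with mm10 as build and no version. Removal of duplicate reads and merging of strands are not given in the sources used here. PCR copies could therefore make counting intervals too narrow. Groups and replicate numbers came from the sample labels.

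The 10 genes, the pathway list and the marker list were chosen with earlier results of these data known. Positions that are not a CG in GRCm38 were left out. Genes came from GENCODE M21. Only autosomes were analysed. Windows needed 3 kept CpGs, bins of 200 bp needed 2, and both needed 10 summed reads in all 20 libraries. Each was tested with limma 3.58.1 (R 4.3.3) on log2((methylated + 1)/(unmethylated + 1)) in the 10 libraries compared, or in all 20 for the difference of AME effects between ages, with Benjamini-Hochberg adjustment over all features at 0.05. Differences in points and their 95% intervals came from limma on percent. CpGs were tested with a quasi-binomial logistic F test (Python 3.11.15, numpy 2.4.6, scipy 1.17.1) at p under 0.001 and 10 points, on libraries with at least 10 reads. CpG group means are over such libraries. The limma and CpG tests were tested on simulated data in which few features changed, all from mid-range methylation. Larger simulated differences were mostly called, but differences of 20 points were called in no bin and missed in most CpGs. The size that the bin test had to recover was raised after this was seen, so a bin or CpG without a call may still differ.

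Named values followed a rule: all members, up to 3 called bins of controls per gene (or the bin of largest difference), the CpG of smallest p in each AME comparison, up to 4 called genes of the pathway list in each direction, and the 3 windows most like the member of largest change. Other single CpGs named in the text, in the age comparisons and at lower read numbers, and the bins whose intervals left out 0 were chosen after their values were seen. P-values measure the spread between 5 mice per group. Exact two-sided permutation tests of single CpGs were added after the data were seen. Alternatives covered read minimums, the value added, the window, the model and the libraries.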

Additional observations from a re-analysis of the deposited data

Results flagged for a closer look

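Of 159 groups of 5 libraries examined, 11 held a library whose gap to the nearest other exceeded 0.71 of the group's range, and chance gives about 1 in 20. In windows, Cyp27a1 in Con-d21 replicate 3 was lowest at 80.5%, against 84.8% to 86.2% in the others. In 200-bp bins, AME-d0 replicate 1 was lowest in Cyp27a1 (64.7%, others 69.8% to 71.9%) and in the upstream Cyp7b1 bin (59.1%, others 77.0% to 83.9%). AME-d21 replicate 4 was lowest in another Cyp27a1 bin (61.9%, others 80.0% to 87.3%). In the Hsd3b7 exon bin AME-d0 replicate 3 was lowest at 62.5% (others 71.7% to 75.2%), and in an upstream Hsd3b7 bin Con-d0 replicate 2 was highest at 95% (others 79.2% to 83.3%). In a Slc10a1 bin AME-d21 replicate 1 was lowest at 71.4% on 14 reads (others 91.9% to 94.1%), and Con-d0 replicate 5 was highest at 100% (others 89.2% to 91.3%). Among Cyp7b1 CpGs, Con-d0 replicate 2 was highest at +54707 (86.4%, others 62.5% to 68.6%). Con-d0 replicate 1 was lowest at +54621 (70.8%, others 78.0% to 80.6%) and at +46964 (64.0%, others 77.8% to 83.3%). No difference between the age effects of Con and AME livers passed its test.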

How the results depend on the processing

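Of 282 recomputed counts of called members 248 stayed within 1.5 times the reported count. These include counts of 0 that stayed 0, as in the AME comparisons with 1 library left out. Control CpG calls, reported as 4 rising and 3 falling, numbered 3 to 4 in all with 1 library left out. Of 707 recomputed window differences 627 kept direction and call, 8 lost a call, 8 gained one and 64 changed sign. Of the sign changes 2 had a called value, both in Slc10a1 at a minimum of 5 reads. The causes were not tested.

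In control age windows a minimum of 20 reads gave 2 rising and 1 falling of 5 tested (all windows: 4471 and 632 of 14804). Leaving out CpGs in or near another gene gave 2 and 1 of 5 (all windows: 5757 and 575 of 13455). The TSS plus and minus 1 kb gave 0 and 1 of 1 (1578 and 393 of 12389), as it did in AME livers (1655 and 347). With 20 reads 5 bins rose and 0 fell of 12 in controls (all bins: 36473 and 3960 of 88293). In AME livers 6 bins were called at this minimum, and the share of all bins is not given here, so this count has no background. Control CpG calls numbered 11 with adjusted p (7 rose, 4 fell, all CpGs 4.29% and 1.02%), 18 with the likelihood-ratio test (13 and 5 of 68, all CpGs 11.1% and 1.74%), 4 with 20 reads (3 and 1 of 35, all CpGs 3.29% and 0.914%), 15 with limma (10 and 5 of 55, all CpGs 8.39% and 1.38%), and 3 to 4 with 1 library left out. AME age CpG calls numbered 11 with adjusted p (8 and 3, all CpGs 4.5% and 0.789%), 25 with the likelihood-ratio test (19 and 6, all CpGs 12.4% and 1.46%), 3 with 20 reads (2 and 1 of 35, all CpGs 3.13% and 0.677%), 13 with limma (10 and 3 of 41, all CpGs 9.49% and 1.22%), 3 without AME-d0 replicates 1 and 3 (1 and 2 of 65, all CpGs 0.933% and 0.293%), and 3 to 5 with 1 library left out. The replicate numbers did not pair the libraries (correlations of deviations from -0.015 to 0.069). With a replicate block 5 control and 3 AME windows and 7 and 10 bins were called, with no share of all features given here. By limma with the block, 14 CpGs were called in controls (10 rose and 4 fell of 55, all CpGs 8.45% and 1.34%). In AME livers 14 were called (11 rose and 3 fell of 41, all CpGs 9% and 1.12%). The block called 0 members in the AME comparisons.

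Window differences that changed sign are given on the log2 scale, each with its comparison in brackets. Slc10a1 at 5 reads had -1.23 (Con age), -0.741 (AME age) and 0.209 (AME at d21), and with 0.5 read added 0.00241 (AME at d0) and -0.0247 (difference of AME effects). Slc27a5 had 0.121 at 20 reads (AME age), -0.0104 with CpGs read in all 20 libraries (AME at d21), and 0.0378 (AME at d0) and -0.0358 (difference of AME effects) without AME-d0 replicates 1 and 3. Without these 2 libraries Cyp7a1 had 0.0407 and Hsd3b7 0.0142 (AME at d0). Hsd3b7 at 20 reads had 0.122 (AME at d0) and -0.0518 (difference of AME effects). Cyp7b1 had -0.0215 at 5 reads and -0.00935 with CpGs read in all 20 libraries (AME at d21). With 1 library left out, Slc10a1 ranged from -0.188 to 0.188 (Con age), -0.136 to 0.335 (AME age), -0.325 to 0.135 (AME at d0), -0.232 to 0.205 (AME at d21) and -0.176 to 0.295 (difference of AME effects). Hsd3b7 ranged from -0.217 to 0.0679 (AME at d0) and -0.0882 to 0.286 (AME at d21). At d21 Abcb11 ranged from -0.168 to 0.0914, Cyp7b1 from -0.0245 to 0.218, Cyp7a1 from -0.0246 to 0.18 and Slc27a5 from -0.1 to 0.0777. For the difference of AME effects Slc27a5 ranged from -0.0241 to 0.154.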
